A study of Mus musculus with 6 samples.

Results

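Eosinophils and mast cells are granule-bearing leukocytes that enter or live in tissues in small numbers. The 10 genes described here were chosen by name: 4 mark eosinophils (Siglecf, Il5ra, Epx and Prg2) and 6 mark mast cells (Cma1, Mcpt4, Cpa3, Tpsb2, Kit and Ms4a2). Of the 10, 9 had a row among the 25344 genes of the table, and Epx had none. They were measured by RNA sequencing of gastrocnemius, a calf muscle. Wild-type mice (WT) gave 3 libraries, and 3 came from littermates that carry an NRTN transgene under the human skeletal actin promoter (HSA-NRTN), a promoter of skeletal muscle fibres. The encoded neurturin is a secreted ligand of the GDNF family. The labels give no strain, age or sex and do not tell how many animals each library pools, so the p-values measure only the spread between these libraries.

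Eosinophils mature in bone marrow under interleukin 5, whose receptor α chain is encoded by Il5ra, and are drawn into tissues by eotaxins that bind the receptor Ccr3. Their crystalloid granules hold eosinophil peroxidase (Epx) and major basic protein (Prg2), whose transcripts are made mainly while the cells still develop in the marrow. Mast cells complete their maturation inside connective tissue, depend on stem cell factor (Kitl) acting on the receptor Kit, and store large amounts of chymase, tryptase and carboxypeptidase. They bind IgE through a receptor whose β chain is encoded by Ms4a2. In skeletal muscle, mast cells sit mainly around vessels and in the connective tissue between fibres.

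Reads counted in genes numbered 27418154 to 35243260 per WT library, against 28580513 to 50291845 for HSA-NRTN. Values are FPKM, reads per kilobase of gene and per unit of sequencing depth, so levels can be compared between genes. In a gene of 1 kilobase, 3 reads corresponded to 0.0597 to 0.109 FPKM. Nrtn lay at 1.70 to 4.33 FPKM in WT and 169 to 201 in HSA-NRTN, which matches the labels, and the fibre genes Acta1 (means of 17192 and 12129 FPKM) and Ckm (6367 and 3975) mark all libraries as skeletal muscle. Both scalings are set side by side below: FPKM as deposited, and the same values rescaled with the size factors that the authors' table implies, which lowers the HSA-NRTN libraries relative to WT by a mean of 0.30 on the log2 scale (1.23-fold). The median log2 change of all genes tested was 0.29 with FPKM and 0.01 with the size factors.

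The surface genes of eosinophils rose strongly in HSA-NRTN muscle, whereas the mast cell genes differed by much less. Siglecf and Il5ra were near 0 in every WT library and rose under both scalings. The 4 mast cell proteases were already at 1.71 to 4.17 FPKM in WT, and their mean ratios of HSA-NRTN to WT were 1.36 to 1.58. Of the 6 mast cell genes, 4 were called higher with FPKM and none with the size factors, where 35.3% and 19.0% of all genes were. The granule gene Prg2 yielded 3 reads in all. In whole muscle, more cells of a type and more RNA per cell cannot be told apart.

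**Figure D1:**
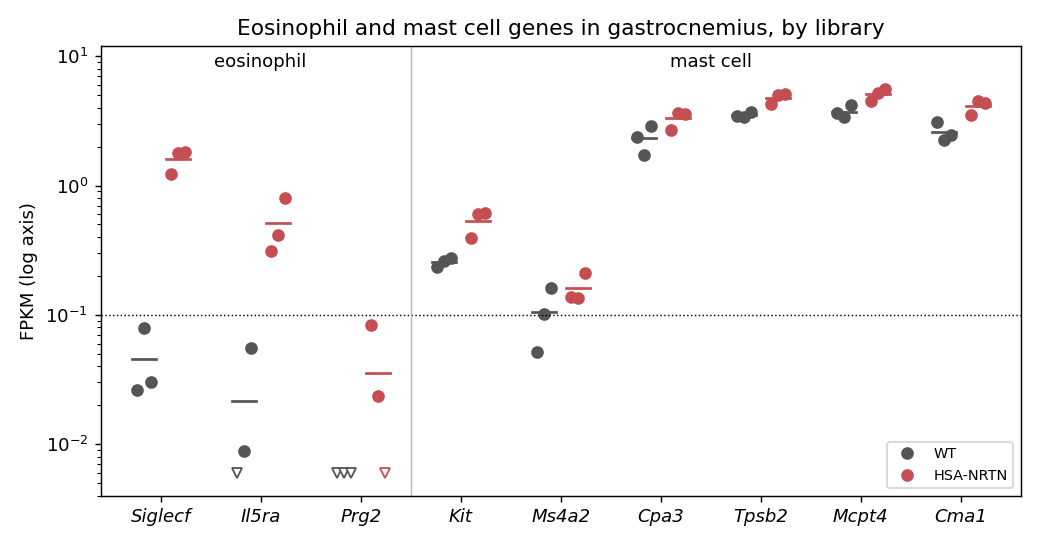
FPKM on a log axis of the 9 genes with a row, in 3 WT libraries (grey) and 3 HSA-NRTN libraries (red). Bars are group means, open triangles at the bottom are libraries at 0, and the dotted line is the level of 0.1 FPKM set for testing; Siglecf and Il5ra separate by more than any mast cell gene.

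Siglecf encodes Siglec-F, a sialic acid-binding receptor of mouse eosinophils that is also present on some macrophages, such as those of the lung alveoli (chromosome 7, 43351341 to 43359531, GRCm38). The WT libraries stood at 0.0261, 0.0795 and 0.0305 FPKM, with 2, 7 and 3 reads. The HSA-NRTN libraries stood at 1.23, 1.77 and 1.81 FPKM, with 98, 249 and 154 reads. Every HSA-NRTN library lay far above every WT library. The mean went from 0.0454 ± 0.0296 to 1.60 ± 0.324 FPKM (SD, n = 3 each), so the ratio of means was 35.3. It rose by 3.55 in log2(FPKM + 0.1), a scale that understates changes of such low genes (SE 0.24; Benjamini-Hochberg adjusted p = 5.30e-05 by limma), and by 3.36 with the size factors (adjusted p = 7.41e-05 by limma). Of the 16650 genes tested, Siglecf ranked 44 by this change.

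Il5ra, the ligand-binding chain of the interleukin 5 receptor, is expressed by eosinophils and their precursors and by B-1 cells (chromosome 6, 106710357 to 106749037). In WT its level was 0, 0.00887 and 0.0556 FPKM, with 0, 1 and 7 reads. In HSA-NRTN its level was 0.313, 0.417 and 0.796 FPKM, with 32, 75 and 87 reads. The groups did not overlap, and HSA-NRTN 3 was the highest. The mean went from 0.0215 ± 0.0298 to 0.509 ± 0.254 FPKM (SD, n = 3), which is a change of 2.27 ± 0.36 in log2 units (SE; adjusted p = 0.00212 by limma), and 2.13 with the size factors (adjusted p = 0.00313 by limma). Both genes passed the level for testing of 0.1 mean FPKM only through the HSA-NRTN libraries. With every gene of the table tested, their adjusted p-values were 0.000228 and 0.00369 (limma). In the authors' deposited table the log2 fold changes were 4.83 ± 0.50 for Siglecf (adjusted p = 1.60e-20) and 4.16 ± 0.71 for Il5ra (adjusted p = 5.28e-08).

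Prg2, the major basic protein of the granule (chromosome 2, 84980461 to 84983632), was at 0 in every WT library. In HSA-NRTN it was at 0.0835, 0.0237 and 0 FPKM, from 2, 1 and 0 reads. A count of 3 reads in this gene corresponded to 0.0712 to 0.131 FPKM in these libraries, so no HSA-NRTN library passed that floor, no fold is given, and a difference was not detectable at this depth. Epx, eosinophil peroxidase, had no row and is given no value. Every row of the table held at least 2 reads over the 6 libraries, and in Epx, with 2737 bases of exons, 3 reads in a library would correspond to 0.0218 to 0.0400 FPKM. In the same HSA-NRTN libraries Siglecf drew 98 to 249 reads.

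Further genes of eosinophils rose as well. Of 18 genes, 15 had a row and 11 were tested. Prg3, Ear1 and Rnase2b had no row, and 4 genes were below the level for testing. All 11 tested genes rose under either scaling, where 35.3% of all genes were called higher with FPKM and 19.0% with the size factors. Of these 11, 4 passed the level for testing only through HSA-NRTN, among them Rnase2a, Ccr3 and Gata1. The genes with the smallest p were Rnase2a, Ear2, Csf2ra and Il1rl1. Ear2, a ribonuclease of eosinophils and macrophages, was measured at 0.254, 0.176 and 0.355 FPKM in WT, against 22.5, 17.9 and 20.2 in HSA-NRTN. Of its 50-base stretches 41.5% also occur in transcripts of other genes, Ear10 first among them, so its level is uncertain. Rnase2a, a related ribonuclease, had 1 read in the WT libraries together and 619 in HSA-NRTN, where it lay at 9.13, 7.69 and 8.16 FPKM. Whether eosinophils or other leukocytes carried these transcripts was not tested.

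Receptor genes for eosinophil growth and recruitment were among them. Ccr3, the eotaxin receptor, was at 0.111, 0.0484 and 0.113 FPKM in WT, against 1.59, 2.31 and 3.93 in HSA-NRTN, where HSA-NRTN 3 was again the highest and HSA-NRTN 1 the lowest, as for Il5ra. It rose by 3.76 ± 0.32 on the log2 scale (SE; adjusted p = 0.000152 by limma). Ccr3 passed the level for testing only through HSA-NRTN, and its adjusted p was 0.000548 with every gene of the table tested (limma). Il1rl1, the interleukin 33 receptor found on eosinophils, mast cells and type 2 lymphocytes, rose from 0.290 ± 0.0643 to 3.39 ± 0.422 FPKM (SD, n = 3). Csf2ra and Csf2rb encode the GM-CSF receptor α chain and the β chain shared with the interleukin 5 receptor, and both are expressed widely in myeloid cells. Csf2ra went from 0.973 ± 0.275 to 12.5 ± 0.809 FPKM and Csf2rb from 0.320 ± 0.0829 to 3.13 ± 0.436. Alox15, the 15-lipoxygenase of eosinophils and some macrophages, went from 0.148 ± 0.136 to 6.78 ± 1.00 FPKM.

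Markers of other leukocytes moved with Siglecf and Il5ra, and their part in the result was not tested. The counts below stand beside 35.3% of all genes called higher and 8.32% called lower with FPKM. With the size factors these shares were 19.0% and 20.3%. All 5 general leukocyte genes rose (summed level 4.82 to 6.24 FPKM in WT and 53.1 to 58.4 in HSA-NRTN), with Ptprc at 0.293 ± 0.104 and 4.26 ± 0.462 FPKM (SD, n = 3). All 10 macrophage markers rose (38.8 to 50.6 and 256 to 277 FPKM), among them Adgre1, which eosinophils also carry. Of the 7 dendritic cell markers, 5 passed the level for testing only through HSA-NRTN; all 7 were called higher (2.16 to 2.91 and 20.5 to 23.6 FPKM), 6 with the size factors and 6 with every gene of the table tested. So were 4 of 4 tested neutrophil markers (0.401 to 0.926 and 4.88 to 8.31 FPKM); 4 further neutrophil markers, Ly6g, Camp, Ngp and Elane, had no row and 3 were below the level for testing. Of the B and plasma cell markers 4 of 6 tested rose (2.43 to 2.91 and 4.86 to 5.58 FPKM; 3 with the size factors), and 1 of the 6 had passed only through HSA-NRTN. Of 9 T and NK cell markers 5 were tested, 4 of them only through HSA-NRTN, and all 5 were called higher (0.298 to 0.492 and 1.94 to 3.43 FPKM), but 3 were without HSA-NRTN 2 or without HSA-NRTN 3. Of 4 tested markers of type 2 innate lymphoid cells, Klrg1, Il7r and Gata3 were called higher, each tested only through HSA-NRTN, and Rora fell; Rora made up most of the list's sum (9.26 to 11.9 and 7.63 to 9.11 FPKM). All 5 fibroblast markers rose (230 to 264 and 393 to 476 FPKM; 4 with the size factors), as did all 5 endothelial markers (59.1 to 64.0 and 74.8 to 97.2 FPKM; 2 with the size factors, and 3 without HSA-NRTN 2 or without HSA-NRTN 3). Of 7 fibre genes 2 rose and 3 fell (1 and 4 with the size factors). With every gene of the table tested 1 fell, since Acta1 and Ckm lost their calls (limma, adjusted p = 0.376 and 0.0702), and without HSA-NRTN 2 only 1 rose. Their sum was 31637 to 35440 FPKM in WT and 20030 to 22703 in HSA-NRTN.

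Among the mast cell genes the proteases were the most abundant. Cma1 encodes the α-chymase mast cell protease 5 (chromosome 14, 55941451 to 55944675). Its WT levels were 3.11, 2.24 and 2.45 FPKM, with 93, 77 and 94 reads, and its HSA-NRTN levels 3.50, 4.47 and 4.38, with 109, 245 and 146 reads. The groups did not overlap with FPKM, but they did with the size factors. The mean went from 2.60 ± 0.456 to 4.12 ± 0.537 FPKM (SD, n = 3). In log2 units this was 0.65 ± 0.15 (SE; adjusted p = 0.0108 by limma). With the size factors the change was 0.36 (adjusted p = 0.0689 by limma), so the call ended.

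Mcpt4, a β-chymase of connective tissue mast cells, lies in the same locus (chromosome 14, 56059629 to 56062313). It was at 3.62, 3.38 and 4.17 FPKM in WT, against 4.48, 5.22 and 5.61 in HSA-NRTN. The lowest HSA-NRTN library stood just above the highest WT library. The log2 change was 0.44 ± 0.12 (SE; adjusted p = 0.0189 by limma). With the size factors it was 0.15, the groups overlapped and the gene was not called (adjusted p = 0.264 by limma). The call was also lost without WT 2, HSA-NRTN 2 or HSA-NRTN 3 (limma, adjusted p = 0.0656, 0.0633 and 0.0711; the range over all single libraries left out was 0.0126 to 0.0711). Of the 50-base stretches of Mcpt4 and Cma1, 5.48% and 5.38% also occur in another gene's transcripts.

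Tpsb2, the tryptase mast cell protease 6 (chromosome 17, 25366305 to 25369098), was at 3.44, 3.40 and 3.70 FPKM in WT, against 4.27, 5.003 and 5.08 in HSA-NRTN. These groups did not overlap under either scaling. Its log2 change was 0.43 ± 0.10 (SE; adjusted p = 0.00954 by limma) with FPKM and 0.14 with the size factors, where it was not called (adjusted p = 0.202 by limma). Cpa3, mast cell carboxypeptidase A (chromosome 3, 20215620 to 20242181), was at 2.36, 1.71 and 2.90 FPKM in WT, against 2.70, 3.64 and 3.58 in HSA-NRTN. The groups overlapped, since WT 3 stood above HSA-NRTN 1. The log2 change of Cpa3 of 0.51 ± 0.20 was not called (SE; adjusted p = 0.0744 by limma). It was called without WT 3 or without HSA-NRTN 1 (limma, adjusted p = 0.0322 and 0.0478; range over single libraries left out 0.0322 to 0.198).

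Kit, the receptor tyrosine kinase for stem cell factor, is carried by mast cells and also by melanocytes, germ cells and blood progenitors (chromosome 5, 75574916 to 75656722). WT levels were 0.233, 0.260 and 0.277 FPKM, with 57, 73 and 87 reads, and HSA-NRTN levels 0.393, 0.600 and 0.613, with 100, 269 and 167 reads. The groups did not overlap under either scaling. The mean went from 0.257 ± 0.0220 to 0.535 ± 0.124 FPKM (SD, n = 3). The ratio was 2.09 and the log2 change 0.81 ± 0.21 (SE; adjusted p = 0.0175 by limma). With the size factors the change was 0.58 and just missed the threshold (adjusted p = 0.0502 by limma), while the authors' deposited table gives 0.76 ± 0.24 with an adjusted p of 0.00679. The call was lost without HSA-NRTN 2 or HSA-NRTN 3 (limma, adjusted p = 0.0695 and 0.0710; range 0.00894 to 0.0710). Of 6 melanocyte markers Mlana had no row, and Dct, Pmel, Tyr and Tyrp1 had group means of at most 0.0551 FPKM. Mitf, the only one tested, was not called.

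Ms4a2, the β chain of the high-affinity IgE receptor (chromosome 19, 11615523 to 11623719), was low throughout. Levels were 0.0519, 0.101 and 0.161 FPKM in WT, from 4, 9 and 16 reads, and 0.137, 0.134 and 0.209 in HSA-NRTN, from 11, 19 and 18 reads. The groups overlapped, and the log2 change of 0.37 ± 0.31 was not called (SE; adjusted p = 0.364 by limma). Fcer1a, the α chain that binds IgE, was likewise low, at 0.214 ± 0.0499 FPKM in WT versus 0.298 ± 0.0723 in HSA-NRTN (SD, n = 3), and was not called (adjusted p = 0.298 by limma).

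Of the 8 genes tested, 6 were called higher and none lower with FPKM, against 35.3% of all genes called higher and 8.32% called lower. With the size factors 2 were called higher, Siglecf and Il5ra, and none lower, against 19.0% and 20.3% of all genes. In the authors' deposited table Siglecf, Il5ra and Kit passed as higher, against 18.0% of all genes. Every HSA-NRTN library lay above every WT library for 6 of the 8 with FPKM, where 44.1% of all genes did so, and for 4 with the size factors, where 25.4% did. For the 6 mast cell genes, all of which passed the level for testing in WT alone, the 4 calls therefore stood beside a background of more than 1 gene in 3 and were absent under the other scaling. Relative to the median of all genes, the changes of Kit, Cma1, Cpa3, Mcpt4, Tpsb2 and Ms4a2 were 0.53, 0.36, 0.22, 0.16, 0.15 and 0.08 with FPKM, and 0.57, 0.35, 0.21, 0.14, 0.13 and 0.19 with the size factors.

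**Figure D2:**
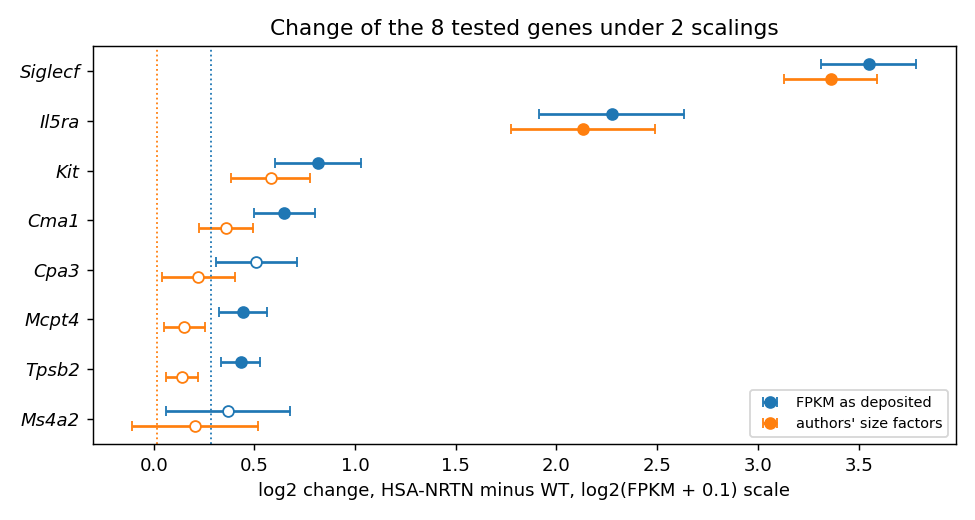
Log2 change (HSA-NRTN minus WT) with its SE for the 8 tested genes, with FPKM as deposited (blue) and with the authors' size factors (orange). Filled points have an adjusted p under 0.05 and dotted lines are the median of all genes under each scaling; Siglecf and Il5ra stand at 2.13 to 3.55, and the mast cell genes at 0.14 to 0.81.

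The 4 proteases stood in similar proportions in all 6 libraries. Tpsb2 made up 27.3% to 31.7% of their summed FPKM, Mcpt4 28.5% to 31.6%, Cma1 18.5% to 24.8% and Cpa3 16.0% to 21.9%. The FPKM of Tpsb2 rest on an inferred length of 1081 bases, shorter than the 1594 bases of its exons in GENCODE M21. The sum itself went from 12.2 ± 1.29 to 17.3 ± 2.05 FPKM (SD, n = 3), a ratio of 1.42 with FPKM as deposited.

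**Figure D3:**
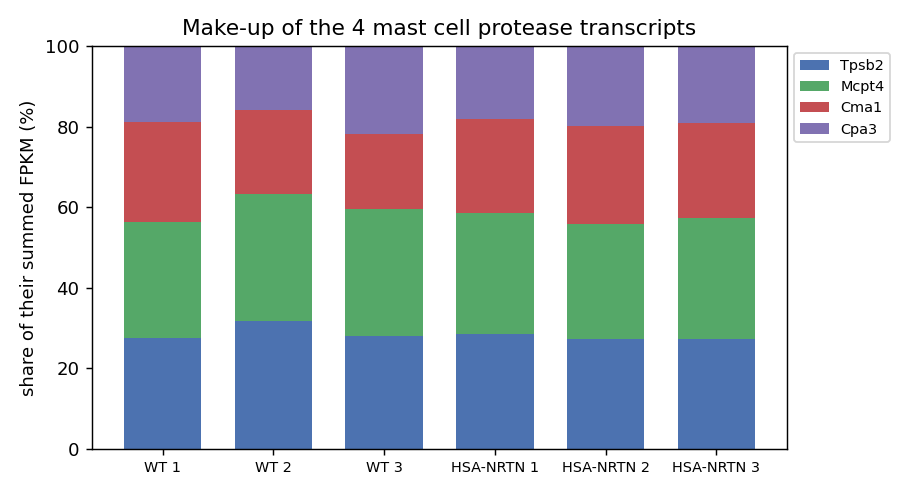
Share of Tpsb2, Mcpt4, Cma1 and Cpa3 in their summed FPKM, in percent, for each of the 6 libraries. The stacks look alike in WT and HSA-NRTN, with Cma1 and Cpa3 varying most, between 18.5% and 24.8% and between 16.0% and 21.9%.

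Ratios between genes of one library do not depend on the scaling. The log2 ratio of Siglecf to the summed proteases was -8.90, -7.08 and -8.76 in WT, against -3.60, -3.37 and -3.37 in HSA-NRTN, a difference of 4.80. The proteases relative to Ptprc, the leukocyte antigen CD45, were at 5.88, 5.39 and 5.01 on the log2 scale in WT, against 1.93, 2.18 and 1.96 in HSA-NRTN, a difference of -3.40. Siglecf relative to Ptprc was at -3.03, -1.69 and -3.75 in WT, where few reads stand behind Siglecf, against -1.68, -1.19 and -1.41 in HSA-NRTN, a difference of 1.40; the highest WT library and the lowest HSA-NRTN library nearly met. Each of the 3 ratios separated the groups, with p = 0.1 in an exact two-sided permutation test (0.1 also after Benjamini-Hochberg adjustment over the 3), the smallest value that 3 libraries against 3 can give. Siglecf, Ptprc and the protease sum differed between the groups already. The ratios restate those values, so the test adds no separate support.

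The share of other mast cell genes that rose with FPKM was near that of all genes. Of 22 genes, 19 had a row and 15 were tested, of which 5 rose and 1 fell with FPKM, where 35.3% and 8.32% of all genes did. With the size factors 4 of 14 rose and 1 fell, beside 19.0% and 20.3% of all genes. Without HSA-NRTN 2 or without HSA-NRTN 3 the risers numbered 3. Of the 15, 4 passed the level for testing only through HSA-NRTN and 2 only through WT. Those with the smallest p were Lat2, Fcer1g, Adora3 and Tph1. Lat2, a signalling adaptor of mast cells, B cells and myeloid cells, rose from 0.259 ± 0.0981 to 2.34 ± 0.240 FPKM (SD, n = 3). Fcer1g, the γ chain that the IgE receptor shares with Fc receptors of macrophages and other leukocytes, rose from 2.26 ± 0.668 to 11.6 ± 0.681 FPKM. Adora3, an adenosine receptor, rose from 0.0271 ± 0.0233 to 0.491 ± 0.0535 FPKM. It had 10 reads in the WT libraries together and passed the level for testing only through HSA-NRTN. With every gene of the table tested, the adjusted p of Adora3 was 0.000761 (limma). Tph1, which catalyses the first step from tryptophan to serotonin, fell from 0.319 ± 0.0312 to 0.0749 ± 0.0164 FPKM. Its log2 change was -1.26 ± 0.23 (SE, with adjusted p = 0.00416 by limma). Tph1 passed the level for testing only through WT, and its adjusted p was 0.00430 with every gene of the table tested (limma). Mrgprb2, the receptor of connective tissue mast cells for basic secretagogues, was at 0.118 ± 0.0800 FPKM in WT versus 0.176 ± 0.0226 in HSA-NRTN and was not called (adjusted p = 0.348 by limma). Tpsab1, the second tryptase, was at 0.109 ± 0.0351 and 0.142 ± 0.0921 FPKM and was not called (adjusted p = 0.762 by limma). Slc6a4 rose from 0.0472 ± 0.0297 to 0.334 ± 0.168 FPKM and was called under both scalings (limma, adjusted p = 0.0152, and 0.0237 with the size factors). Slc6a4 passed the level for testing only through HSA-NRTN, and its adjusted p was 0.0211 with every gene of the table tested (limma).

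Several ligands that act on these cells rose as well. Of 16 genes for ligands and recruiting factors, 13 had a row and 10 were tested. With FPKM 8 of these rose and none fell, where 35.3% and 8.32% of all genes did. With the size factors 6 of 9 rose and none fell, beside 19.0% and 20.3% of all genes. Of the 10, 2 passed the level for testing only through HSA-NRTN. Ccl11, or eotaxin-1, which recruits eosinophils through Ccr3, was at 18.2, 18.5 and 22.1 FPKM in WT, against 46.7, 46.3 and 52.4 in HSA-NRTN. Its groups stood well apart, with a log2 change of 1.31 ± 0.10 (SE; adjusted p = 7.66e-05 by limma) and 1.01 with the size factors. Ccl24, eotaxin-2, went from 1.51 ± 0.192 to 2.25 ± 0.349 FPKM (SD, n = 3; adjusted p = 0.0214 by limma), a call that ended with the size factors (adjusted p = 0.172 by limma). Ccl5, Ccl7 and Ccl8 are chemokines that attract eosinophils among other leukocytes. Ccl8 rose from 0.486 ± 0.140 to 6.08 ± 0.877 FPKM, Ccl7 from 0.451 ± 0.253 to 4.17 ± 0.841 and Ccl5 from 0.0110 ± 0.0191 to 0.879 ± 0.210. Ccl5 had 1 read in the WT libraries together and passed the level for testing only through HSA-NRTN. With every gene of the table tested, the adjusted p of Ccl5 was 0.000377 (limma).

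The cytokines of the same list showed a mixed picture. Kitl, the ligand of Kit, went from 6.58 ± 0.902 to 11.1 ± 2.27 FPKM (SD, n = 3; adjusted p = 0.00721 by limma), and with the size factors it just missed the threshold (adjusted p = 0.0507 by limma), as Kit did. Tslp, an alarmin of epithelium and stroma, rose from 0.350 ± 0.113 to 1.63 ± 0.396 FPKM, and Tgfb1 from 1.49 ± 0.401 to 4.31 ± 0.875. Il33, the ligand of Il1rl1, stood at 2.58 ± 0.150 and 3.01 ± 0.228 FPKM and was not called (adjusted p = 0.116 by limma). Its change was 0.21 with FPKM and -0.07 with the size factors. Il4 was at 0, 0.0258 and 0 FPKM in WT, against 0.0285, 0.178 and 0.373 in HSA-NRTN and was not called (adjusted p = 0.0766 by limma). Il5, the ligand of Il5ra, had no read in WT and 4 reads in all in HSA-NRTN. Csf2 and Il13 also had no read in WT, and had 9 and 7 reads in all in HSA-NRTN. None of Il5, Csf2 and Il13 reached the level for testing.

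**Figure D4:**
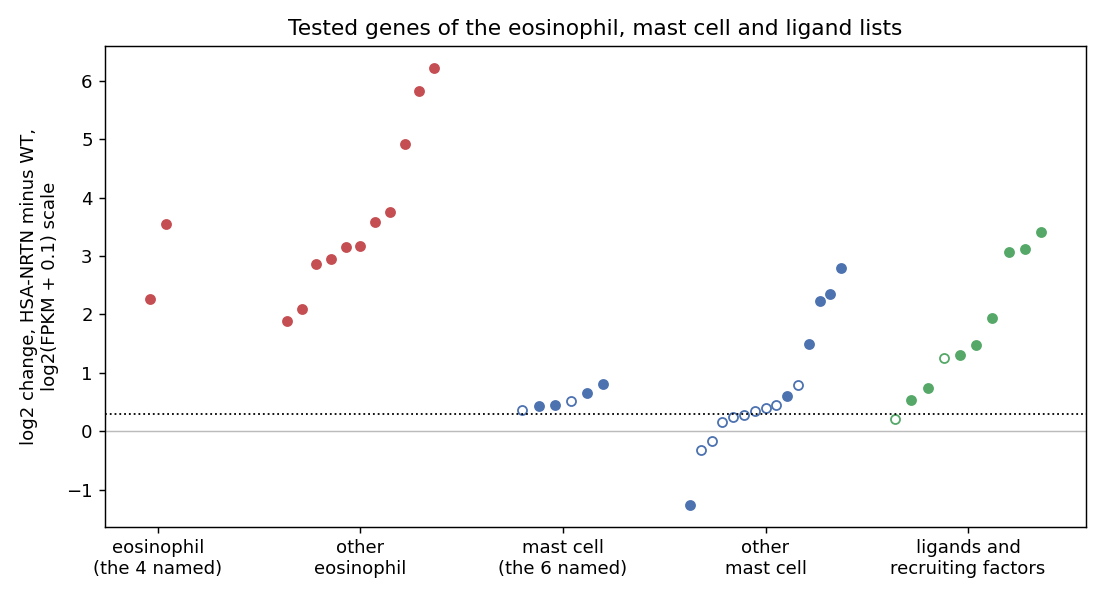
Log2 change (HSA-NRTN minus WT, FPKM as deposited) of each tested gene in 5 lists; filled points have an adjusted p under 0.05 and the dotted line is the median of all genes, 0.29. All points of the eosinophil lists lie between 1.88 and 6.23, and the 6 mast cell genes between 0.37 and 0.81.

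Transcription factors of the GATA family act in both lineages. Gata1 was placed in the eosinophil list and Gata2 in the mast cell list, but neither is confined to that lineage. Which cells of the muscle carried their transcripts was not tested. Gata1 had 1 read in the WT libraries together and 79 in HSA-NRTN, where it was at 0.187, 0.302 and 0.389 FPKM (limma, adjusted p = 0.00255; 0.00385 with the size factors). It passed the level for testing only through HSA-NRTN, and with every gene of the table tested its adjusted p was 0.00200 (limma). Gata2 went from 1.15 ± 0.166 to 1.81 ± 0.296 FPKM (SD, n = 3; adjusted p = 0.0189 by limma), and this call ended with the size factors (adjusted p = 0.104). Promoter windows of RefSeq (GRCm38.p6) were found for 8 of the 10 genes. The 250 bases before the start were searched on both strands for the hexamers that GATA factors prefer, namely AGATAA or its variant AGATAG, together with TGATAA or its variant TGATAG. Of the 8 genes 5 held at least 1 match (Il5ra, Cma1, Mcpt4, Cpa3 and Ms4a2), against 26.5% of 32851 windows of this length. CACGTG and CATGTG, letters that the mast cell factor MITF can bind, were found on either strand in 1 of the 8, Siglecf, against 17.6% of windows. The windows of the 2 eosinophil genes that rose and of 3 mast cell proteases are shown on the gene's strand with GATA matches in capitals: Siglecf (chr7:43351091-43351340, plus strand), Il5ra (chr6:106749038-106749287, minus), Cma1 (chr14:55944676-55944925, minus), Mcpt4 (chr14:56062311-56062560, minus) and Cpa3 (chr3:20242182-20242431, minus).
Siglecf: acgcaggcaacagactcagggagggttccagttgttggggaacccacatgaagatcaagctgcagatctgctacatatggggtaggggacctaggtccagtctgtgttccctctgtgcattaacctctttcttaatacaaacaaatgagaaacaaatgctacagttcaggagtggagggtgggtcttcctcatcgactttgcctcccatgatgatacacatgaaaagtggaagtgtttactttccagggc
Il5ra: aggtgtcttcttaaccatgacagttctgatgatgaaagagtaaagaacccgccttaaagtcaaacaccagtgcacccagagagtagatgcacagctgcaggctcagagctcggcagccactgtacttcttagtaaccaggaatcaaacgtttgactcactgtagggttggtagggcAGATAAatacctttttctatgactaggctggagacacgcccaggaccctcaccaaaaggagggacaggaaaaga
Cma1: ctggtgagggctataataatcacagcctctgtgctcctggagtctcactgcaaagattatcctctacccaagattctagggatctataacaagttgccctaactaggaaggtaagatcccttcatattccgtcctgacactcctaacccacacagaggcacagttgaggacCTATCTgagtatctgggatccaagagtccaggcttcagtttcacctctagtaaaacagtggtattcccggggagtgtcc
Mcpt4: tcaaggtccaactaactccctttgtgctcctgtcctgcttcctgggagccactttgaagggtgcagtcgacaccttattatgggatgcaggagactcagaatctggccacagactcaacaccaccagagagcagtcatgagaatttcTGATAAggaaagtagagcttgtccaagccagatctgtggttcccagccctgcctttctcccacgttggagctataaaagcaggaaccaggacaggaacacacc
Cpa3: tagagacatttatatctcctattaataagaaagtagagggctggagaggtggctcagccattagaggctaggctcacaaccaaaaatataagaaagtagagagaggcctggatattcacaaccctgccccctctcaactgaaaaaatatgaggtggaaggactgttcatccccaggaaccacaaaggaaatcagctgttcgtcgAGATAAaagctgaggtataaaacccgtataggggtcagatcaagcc
The matched letters begin 74 bases before the start in Il5ra, 79 in Cma1, 103 in Mcpt4 and 46 in Cpa3. The Siglecf window holds none of these letters. A match describes letters only and shows no binding.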

How the data were processed

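Gastrocnemius was snap-frozen, RNA was extracted with TRI reagent, and libraries were made with an Illumina TruSeq RNA kit, per the labels' protocols. HISAT2, HTSeq, DESeq2, Cufflinks and Cuffdiff with GRCm38 are named per the submitters' processing notes; no version or setting is given in the sources used here. Whether strand was kept is not stated; none of the 10 genes' exons overlap another gene in GENCODE M21.

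The deposited values per library are FPKM, scaled by the authors to each library's total. The authors also deposited a mean signal (reads divided by size factors), log2 fold changes with SE, a test score and p-values, raw and adjusted. Genes whose GENCODE M21 exon length gave whole reads were used to recover the authors' size factors. The size factors and the mean signal then gave each gene's length, which equalled the GENCODE exon length for 95.6% of matched genes. With these inferred lengths, 100% of 127467 FPKM above 0 gave whole reads within 0.01 read.

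The test was limma 3.58.1 (R 4.3.3), allowing an intensity trend, on log2(FPKM + 0.1), two-sided, over the 16650 genes that averaged 0.1 FPKM or more, Benjamini-Hochberg adjusted p under 0.05. A lower level and pseudocount than 1 FPKM were used because most of the 10 genes are low. The script was tested on simulated data. Floors cover counting error only.

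The genes, lists and tests were chosen with earlier results of these data known. Named by rule were the 10 genes, the called genes of smallest p in each list (4 at most), and every ligand averaging 0.1 FPKM or more. Outside the rule, Ccr3, Csf2rb, Alox15, Gata1, Gata2, Fcer1a, Mrgprb2, Tpsab1, Slc6a4, Il5, Csf2, Il13 and Mcpt8 were named after their values were seen. So were the genes without a row, Ptprc, Acta1 and the melanocyte markers. In the lists of other cell types only some of the genes that the rule allows are named.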

Additional observations from a re-analysis of the deposited data

How the results depend on the processing

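Siglecf and Il5ra were called higher in every setting that tested them. They were not tested where a mean of 1 FPKM was required. All 8 tested genes kept a positive change under every alternative. The members called higher numbered 6. They fell to 3 with a mean of at least 1 FPKM, alone or with a pseudocount of 1, where only the 4 proteases were tested, and to 3 in the authors' deposited test. They fell to 2 with the size factors, alone, with the replicate block or with no filter, the last pair chosen after seeing the data. Leaving out 1 library gave 4 to 7.

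Over all genes 5879 were called higher and 1385 lower; the size factors gave 3156 and 3373, the authors' deposited test 3417 and 3365, the size factors with the replicate block 2913 and 3230, and the size factors with no filter 3025 and 3035. Leaving out 1 library gave 4259 to 5769 higher and 1060 to 1275 lower. With the replicate block alone 5481 were higher and 1309 lower, and 6 members were still called higher. Same-numbered libraries did not deviate together (correlations 0.04, -0.07 and 0.05 across genes), so the numbers were not taken as pairs.

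Depth limits Prg2, Ms4a2 and the WT levels of Siglecf and Il5ra, which rest on 0 to 19 reads per library.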

Other observations

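Basophils share the IgE receptor and interleukin 4 with mast cells. Of the 6 genes of the basophil list 3 were tested with FPKM and 2 with the size factors. Under each, 1 was called higher, where 35.3% and 19.0% of all genes were. Of the 3, 2 passed the level for testing only through HSA-NRTN. The called gene was Prss34, 1 of these 2, a protease gene of basophils and mast cells in the tryptase locus, which was at 0.0600, 0.0261 and 0.0467 FPKM in WT, against 0.288, 0.213 and 0.242 in HSA-NRTN, without overlap (limma, adjusted p = 0.00680; 0.00451 with every gene of the table tested). It drew 5 reads in the WT libraries together and 32 in HSA-NRTN. Mcpt8, the protease most restricted to basophils in mice, had no read in WT and 2 reads in HSA-NRTN.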
